A study of Homo sapiens with 19 samples.

Results

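The integrin and laminin genes examined here are 26 genes for integrin subunits and 11 genes for laminin chains, together 37 of the 20163 protein-coding genes of the nuclear chromosomes in the GENCODE annotation of hg19 (GRCh37). They were chosen by gene family, with earlier results of these data known. ERRα, an orphan nuclear receptor, had been mapped by chromatin immunoprecipitation and sequencing (ChIP-seq) in SKBr3 and BT-474, human breast cancer cell lines with amplified ERBB2. Before ChIP, both lines were starved of serum for 24 h and exposed to EGF or HRG (heregulin), each at 100 μM for 90 min, or to PBS as vehicle. LRSKBr3, an SKBr3 line made resistant to the EGFR and HER2 inhibitor lapatinib and kept in 2 μM of it, was compared with its parental line, pSKBr3, for which no treatment was labelled. Resistance and the lapatinib in the medium cannot be told apart in this comparison. Serum starvation was labelled for the SKBr3 and BT-474 lists only. A difference in serum therefore cannot be told apart where these lists are set beside those of pSKBr3 or LRSKBr3 cells.

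The authors deposited 8 peak lists, 1 per condition. The SKBr3, pSKBr3 and LRSKBr3 lists each pool 2 ChIP libraries against 1 input library, whereas each BT-474 list rests on 1 ChIP library and the input of vehicle-treated cells. No spread between replicates can therefore be given and no difference between conditions was tested. The lists hold no tag counts, so read depth could not be assessed. Every peak comes with a score of the authors, −10 log10 of its P value, which is given below as its percentile within its own list, the strongest peak being near 100. A peak was assigned to a gene when its centre lay within 20 kb of any annotated transcription start of that gene. Peaks of different lists that overlapped were joined into 1 site. A site that EGF or HRG (or both) called while vehicle did not is termed growth factor-gained, and a site called in LRSKBr3 but not in pSKBr3 cells resistant-gained.

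Integrins are cell-surface heterodimers of an α and a β subunit that couple the extracellular matrix to the cytoskeleton and to kinases such as FAK and Src. Laminins are basement membrane trimers of an α, a β and a γ chain, and are bound by several integrins. In mammary epithelium the laminin receptors α3β1, α6β1 and α6β4 anchor cells to the basement membrane.

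Gained sites that carried an AP-1 word are shown as sequences, since the study considered the Jun/Fos factors that bind this word, as well as the ERRE that ERRα itself binds. The ERRE word searched was TCAAGGTCA and the AP-1 words were TGACTCA and TGAGTCA, on both strands, within 100 bp of the peak centre. The words can overlap by a few letters, and a site with both counts for each. The 6 stretches below are examples of gained sites with an AP-1 word. They are not the 6 of highest percentile among gained sites with a word, and no stretch of a gained site with an ERRE word is shown. Each is the plus strand of GRCh37, 5′ to 3′, with the word in capitals.
ITGAV, chr2:187437557-187437643: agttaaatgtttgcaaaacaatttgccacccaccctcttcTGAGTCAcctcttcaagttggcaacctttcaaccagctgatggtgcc
ITGA3, chr17:48128515-48128601: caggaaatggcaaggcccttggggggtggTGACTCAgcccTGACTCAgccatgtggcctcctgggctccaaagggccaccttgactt
ITGB7, chr12:53567203-53567289: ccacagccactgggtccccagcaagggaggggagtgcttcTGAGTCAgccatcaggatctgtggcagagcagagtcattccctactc
ITGAE, chr17:3623405-3623491: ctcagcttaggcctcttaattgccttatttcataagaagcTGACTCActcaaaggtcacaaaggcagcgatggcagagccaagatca
ITGB2, chr21:46337003-46337089: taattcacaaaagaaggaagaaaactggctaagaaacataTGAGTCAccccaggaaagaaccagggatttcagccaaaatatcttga
LAMA3, chr18:21452875-21452961: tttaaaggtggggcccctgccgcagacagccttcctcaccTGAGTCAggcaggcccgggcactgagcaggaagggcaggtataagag
The ITGAV stretch belongs to a peak at percentile 73.9 on HRG. The ITGA3 stretch holds the AP-1 word in 2 copies and its peak stood at percentile 64.3 on HRG. The ITGB2 stretch is from BT-474 cells on HRG (percentile 42.9), the LAMA3 stretch from SKBr3 cells on EGF (percentile 39.7), and the other stretches are from SKBr3 cells on HRG.

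The next stretches hold the ERRE word at 3 of the 4 sites called in all 8 lists that carried one, and are shown because these sites were called in every condition. The other is the ITGA3 site chr17:48182114-48187010. The 3 stretches lie in an intron of ITGAV, upstream of LAMB2 and upstream of LAMB1. The choice of stretches, AP-1 for gained sites and ERRE for sites of all 8 lists, does not show how the words divide between them. AP-1 words also occurred at sites of all 8 lists (ITGB5, ITGB6, LAMB2 and LAMB3). ERRE words also occurred at gained sites, 3 in SKBr3, 1 in BT-474 and 1 in LRSKBr3 cells.
ITGAV, chr2:187460035-187460123: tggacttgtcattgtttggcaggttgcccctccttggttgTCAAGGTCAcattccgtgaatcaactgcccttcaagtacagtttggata
LAMB2, chr3:49172010-49172098: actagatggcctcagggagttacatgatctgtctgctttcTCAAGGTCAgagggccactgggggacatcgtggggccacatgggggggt
LAMB1, chr7:107648457-107648545: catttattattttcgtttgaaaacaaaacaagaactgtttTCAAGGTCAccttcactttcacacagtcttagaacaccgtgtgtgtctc
The ITGAV word lay 44 bp from the centre of a peak at percentile 98.6 on EGF in SKBr3 cells. The LAMB2 and LAMB1 words were 67 bp and 55 bp from peak centres at percentiles 80 and 71.2 on HRG in BT-474 cells.

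In SKBr3 cells, ERRα peaks were in range of 27 of the 37 genes on vehicle (73.0%), 31 on EGF (83.8%) and 32 on HRG (86.5%). Among all protein-coding genes the shares were 54.1%, 56.3% and 66.4%. In BT-474 cells the members in range numbered 28 on vehicle (75.7%, against 53.0% of all genes), 19 on EGF (51.4%, against 42.3%) and 30 on HRG (81.1%, against 55.3%). pSKBr3 cells had 26 such members (70.3%, against 57.1%) and LRSKBr3 cells 29 (78.4%, against 69.9%). The number of peaks in range was 73 on vehicle, 93 on EGF and 124 on HRG in SKBr3 cells, in lists of 32183, 32567 and 37195 peaks. BT-474 cells had 59, 38 and 71 such peaks, in lists of 32259, 26832 and 41271. pSKBr3 cells had 62, and LRSKBr3 cells 108, in lists of 22539 and 39777 peaks.

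The members are long genes with many starts, so that more of the genome was in their range. Their median was 9 starts and 94.7 kb of range, against 5 starts and 49.3 kb for all genes. With the 5′ end of each gene as its only start, which gives every gene a range of the same size, the members stood above all genes in 3 of the 8 lists. By this measure 16 members (43.2%) were in range on vehicle in SKBr3 cells, against 45.3% of all genes. On EGF there were 20 members (54.1%, against 46.8%) and on HRG 25 (67.6%, against 58.9%). In BT-474 cells the shares were 37.8%, 24.3% and 51.4%, against 43.9%, 32.9% and 45.6%. In pSKBr3 cells the share was 32.4% against 49.7%, and in LRSKBr3 cells 56.8% against 63.4%.

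**Figure D1:**
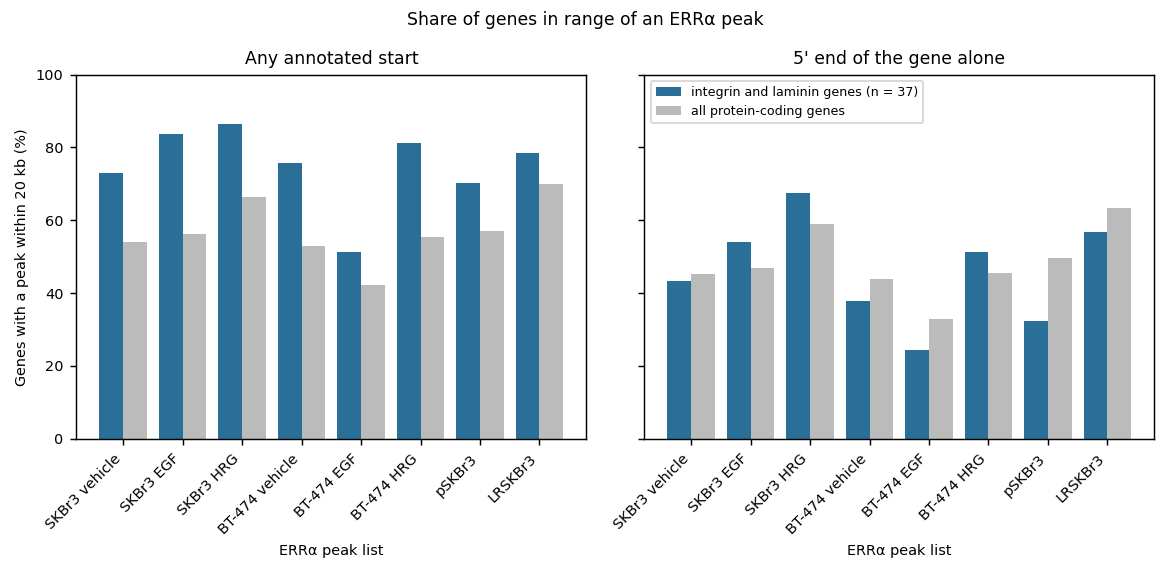
Bars give the percentage of genes with an ERRα peak centre within 20 kb in each list, for the 37 integrin and laminin genes and for all 20163 protein-coding genes, counting any annotated start (left) or the 5′ end alone (right). The members exceed all genes in every list on the left, whereas on the right they do so on EGF and HRG in SKBr3 cells and on HRG in BT-474 cells only.

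Merging the 8 lists gave 193 sites in range of members. Of these, 64 were called in 1 list, 110 in 2 to 7 lists and 19 in all 8. The share in all 8 lists was 9.84%, against 7.10% of all 90452 sites. An intron of a member held 100 of the sites, and 41 lay within 1 kb of a start of a member. For 148 sites the nearest protein-coding start was that of a member, while the others were nearer to a neighbouring gene. Sites called only in SKBr3-derived cells (SKBr3, pSKBr3 or LRSKBr3) made up 54.4% of the members' sites against 44.1% of all sites, and sites called only in BT-474 cells 14.5% against 28.7%. All sites were not limited to those within 20 kb of a start, so they differ in kind from the members' sites.

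**Figure D2:**
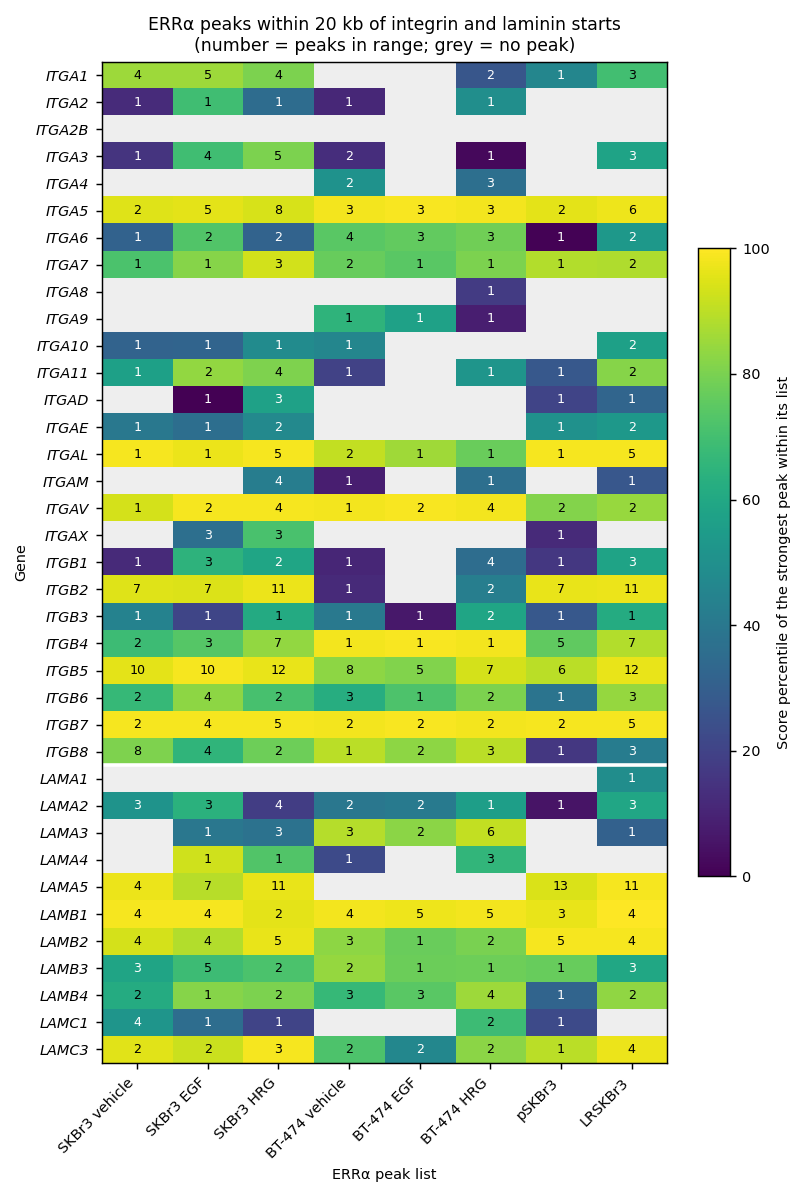
Each row is a gene and each column a peak list. The number is the count of peaks in range, the colour is the score percentile of the strongest of them within its list, and grey marks no peak. ITGB5, ITGB2 and LAMA5 hold the most peaks in SKBr3-derived cells, LAMA5 is grey in the 3 BT-474 lists, and ITGA2B is grey throughout.

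The collagen-binding subunits ITGA1, ITGA2, ITGA10 and ITGA11 were all in range of a peak in SKBr3 cells under each treatment, and none of them was on EGF in BT-474 cells. Among all genes the shares were 54.1% to 66.4% in the SKBr3 lists and 42.3% on EGF in BT-474 cells. ITGA1, the α1 subunit, had 5 sites. Its strongest, chr5:52217743-52219462 in an intron, carried an AP-1 word and stood at percentile 85.4 on vehicle, 85.4 on EGF and 80.1 on HRG in SKBr3 cells. In BT-474 cells this site was called on HRG alone, at percentile 26.6, and in pSKBr3 and LRSKBr3 cells it stood at 46 and 69.9. An ITGA1 intron site at chr5:52094736-52097580 was likewise called on HRG alone in BT-474 cells (26.8). Hence ITGA1 was growth factor-exclusive in BT-474 cells, with gained sites and no vehicle peak in range, but bound on vehicle in SKBr3 cells.

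ITGA2, the α2 subunit, had a single site just upstream of its start, chr5:52282892-52285051. In SKBr3 cells it stood at percentile 12.4 (vehicle), 69.3 (EGF) and 35.2 (HRG), and in BT-474 cells at 11.2 (vehicle) and 49.5 (HRG). No list of pSKBr3 or LRSKBr3 cells held it, and by the definition used it was not gained in any comparison. ITGA11, the α11 subunit, gained a site at chr15:68625763-68628333, 1391 bp from a start, at percentile 60 on EGF and 80.5 on HRG in SKBr3 cells. ITGA10, the α10 subunit, had no pSKBr3 peak in range and LRSKBr3 peaks at percentiles 57 and 47.3, both nearer to the starts of other genes.

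Of the laminin-binding subunits, ITGA3 (α3) gained binding in all 3 comparisons. Its site at chr17:48139045-48140492, in an intron, had no vehicle peak and stood at percentile 44 on EGF and 75.9 on HRG in SKBr3 cells. The neighbouring site chr17:48140699-48143127 was called at percentile 15 on vehicle, 69.3 on EGF and 80.2 on HRG. In the parental line ITGA3 had no peak in range at all, and in LRSKBr3 cells it had 3, the strongest at percentile 57.9. It was therefore resistant-exclusive. In BT-474 cells its peaks were weak, at percentiles 12.9 and 4.94 on vehicle and 1.98 on HRG.

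ITGA6, the α6 subunit, had 5 sites, 1 of them called in both SKBr3 and BT-474 cells. The shared intronic site, chr2:173295388-173297371, was common in BT-474 cells (52.8, 60.5 and 71.6) and gained in SKBr3 cells (26.7 on EGF and 1.07 on HRG) and in LRSKBr3 cells (12.9). The intronic ITGA6 sites chr2:173297924-173300784 and chr2:173328495-173331147 were called in the 3 BT-474 lists and in no other. The former stood at 74.6 on vehicle, 76.1 on EGF and 78.4 on HRG. A further intronic site, chr2:173345168-173346458, carried an AP-1 word and was called in the 5 lists of SKBr3-derived cells only, at 31.4 on vehicle, 73 on EGF, 31.9 on HRG, 0.677 in pSKBr3 and 53.2 in LRSKBr3 cells. ITGA7, the α7 subunit, had its site of all 8 lists (71.5 to 93) nearest to the start of CD63. A site whose centre lay 50 bp or more from an ITGA7 start, and nearer still to a start of BLOC1S1, was called on HRG in SKBr3 cells (31.4), in LRSKBr3 cells (32.7) and on vehicle in BT-474 cells (2.62).

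Among the subunits that recognise the RGD tripeptide, ITGAV (αV, the partner of β1, β3, β5, β6 and β8) held a strong site in all 8 lists. This intronic site, chr2:187458274-187462430, which carries the ERRE printed above, stood at percentile 93.6 on vehicle and 98.6 on EGF and HRG in SKBr3 cells. In BT-474 cells its percentiles were 98.3, 98.9 and 98.4, and in pSKBr3 and LRSKBr3 cells 81.5 and 84.4. A site at the ITGAV start, chr2:187453889-187456704, was gained in both lines and on HRG only, at 61.4 in SKBr3 and 41.1 in BT-474 cells. The centre of the SKBr3 peak lay 35 bp from the nearest start and that of the BT-474 peak 815 bp. The site at the start was also called in pSKBr3 (49.4) and LRSKBr3 cells (42.7), for which neither added growth factor nor serum starvation was labelled. Upstream, the AP-1 site chr2:187436988-187438153 was gained in both lines too, but its BT-474 percentile on HRG was 3.89 against 73.9 in SKBr3 cells. The ITGAV gene runs from 187454737 to 187545628 on the plus strand.

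ITGA5, the fibronectin receptor subunit α5, had 10 sites, 7 of them growth factor-gained in SKBr3 cells. The strongest gained site, chr12:54815184-54818138, lies upstream of the 5′ end and stood at percentile 80.3 on EGF and 76.7 on HRG, with no peak in any other list. The 2 ITGA5 sites called in all 8 lists are nearer to the start of ZNF385A, and the stronger of them stood between 94.1 and 98.9. An upstream site at chr12:54828036-54830416 was common in BT-474 cells (57.8, 49.4 and 71.7) and gained in SKBr3 cells (7.2 on HRG) and in LRSKBr3 cells (57.3). ITGA8, the α8 subunit, had 1 peak, on HRG in BT-474 cells at percentile 17.5, and its centre was 19471 bp from a start, close to the limit of the range. ITGA2B, the platelet αIIb subunit, had no peak in range in any list, which held for 15.3% of all genes.

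ITGA4 and ITGA9, which encode the related α4 and α9 subunits, were in range of a peak in BT-474 cells only. ITGA9 had 1 intronic site (65.2 on vehicle, 57.1 on EGF and 8.24 on HRG). ITGA4 had 3, of which the strongest was chr2:182379697-182381730 with 51 on vehicle and 36.4 on HRG. No SKBr3-derived list held any of these 4 sites.

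Of the 5 leukocyte α subunits, 2 were in range of a peak on vehicle in SKBr3 and 2 in BT-474 cells. On EGF and HRG 4 and 5 were in range in SKBr3 cells, against 1 and 2 in BT-474 cells. In pSKBr3 and in LRSKBr3 cells 4 were in range. The shares of all genes in these lists are those given above. ITGAD, ITGAE, ITGAL, ITGAM and ITGAX all had a gained site in SKBr3 cells, and none of the 5 had one in BT-474 cells, where gained sites were also fewer over all genes (28.7%, against 52.2% in SKBr3 cells). ITGAX, ITGAD and ITGAM, the αX, αD and αM subunits, form a cluster on chromosome 16 and were growth factor-exclusive in SKBr3 cells. ITGAX had a peak 158 bp from its start, at percentile 33.7 on EGF and 58.9 on HRG, and no other list called it. A further ITGAX site at an internal start, chr16:31382351-31383709, stood at 36.4 on EGF, 71.1 on HRG and 11.9 in pSKBr3 cells. The sites of ITGAM were weaker (at most 42.3, on HRG), and the strongest of ITGAD was at 57.4 on HRG.

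ITGAL, the αL subunit of the lymphocyte receptor LFA-1, had a site of high percentile in every list (77.1 to 98.8), which is nearer to the start of ZNF768. At an internal ITGAL start, chr16:30499117-30501145 was gained on HRG (51.2) and in LRSKBr3 cells (7.09). ITGAE, the αE subunit, had a common SKBr3 site at chr17:3620466-3622193 (40.2, 36.1 and 47.1) and an adjoining AP-1 site that was gained on HRG (44.5) and in LRSKBr3 cells (9.84). Neither was called in BT-474 cells.

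**Figure D3:**
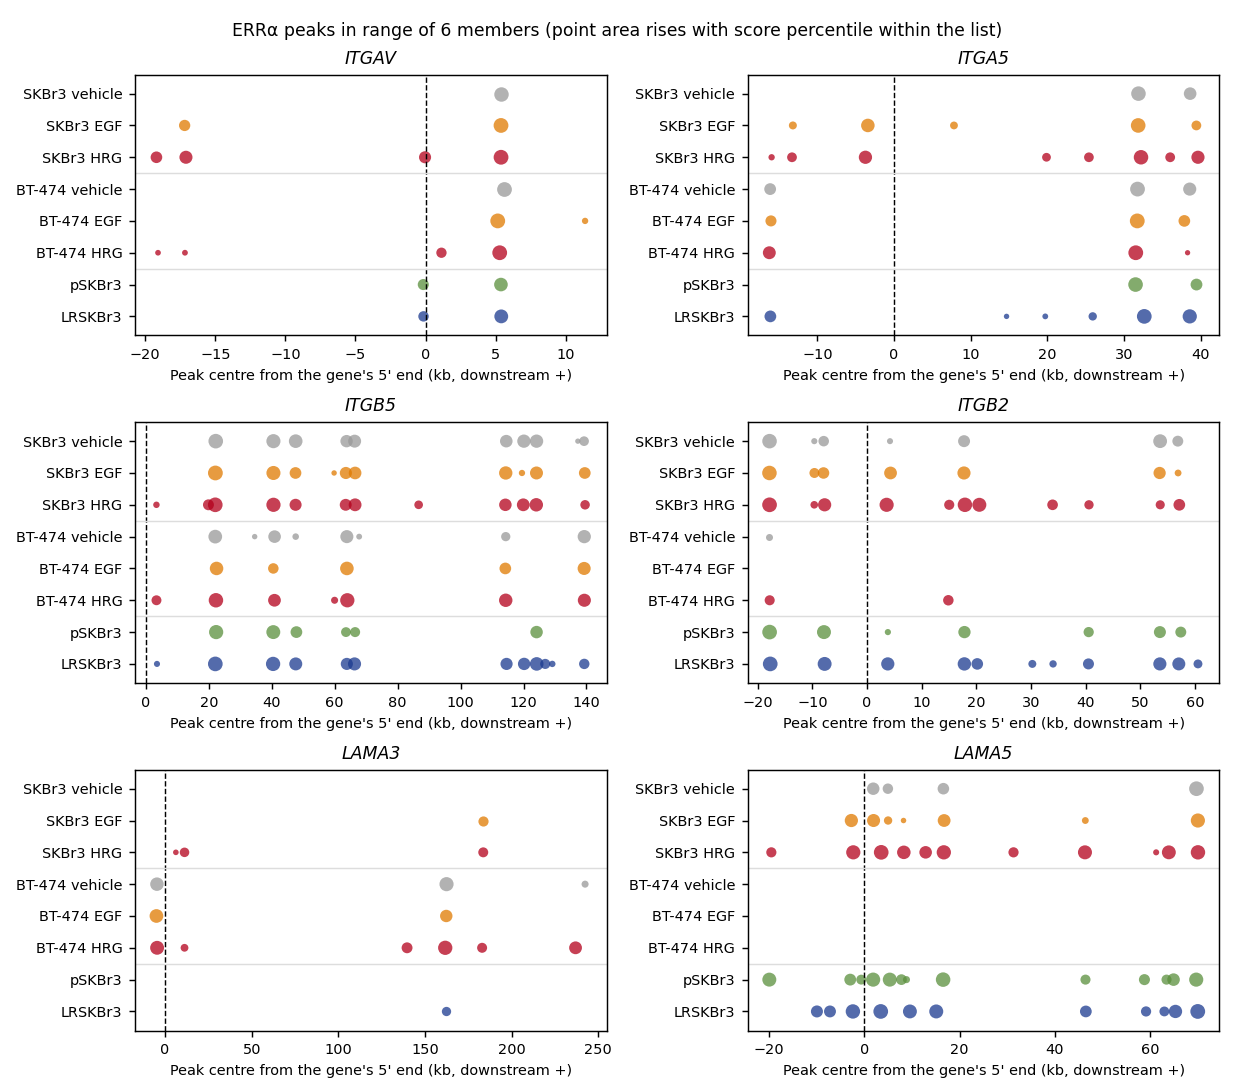
Peaks in range of 6 genes are drawn at the distance of their centre from the 5′ end of the gene (kb, downstream positive), with 1 line per list and the point area rising with score percentile. Peaks at the ITGAV 5′ end appear in SKBr3 cells on HRG, in pSKBr3 and in LRSKBr3 cells but not in the vehicle lists, the BT-474 HRG peak lies 1135 bp inside the gene, LAMA3 shows different positions in SKBr3 and BT-474 cells, and LAMA5 has no BT-474 peak.

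All 8 β subunits were in range of a peak in 7 of the lists, and 6 of them on EGF in BT-474 cells. Among all genes the shares were 53.0% to 69.9% in those 7 lists and 42.3% on EGF in BT-474 cells. With the 5′ end alone ITGB3 was in range in no list, and ITGB4, ITGB5 and ITGB7 were not in range on vehicle in SKBr3 cells. ITGB1, the β1 subunit shared by most epithelial integrins, had a peak at its 5′ end, chr10:33293733-33295463. It stood at percentile 12.1 on vehicle, 64.8 on EGF and 49.6 on HRG in SKBr3 cells, and the site counts as common since vehicle called it. In BT-474 cells it was called on HRG alone (20.3), and the percentile was 16.3 in pSKBr3 and 43.9 in LRSKBr3 cells. These are ranks within lists of different length and unknown depth and do not measure a change in binding. The upstream ITGB1 site chr10:33297597-33300293 was gained in both lines, at 25.5 on EGF and 58.8 on HRG in SKBr3 cells and 35.6 on HRG in BT-474 cells.

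ITGB2, the leukocyte β2 subunit, had 13 sites, of which 11 were not called in BT-474 cells. At chr21:46346503-46350158, 303 to 1019 bp from an internal start, the percentile was 5.5 on vehicle, 70.2 on EGF and 89.2 on HRG in SKBr3 cells. The same site stood at 6.24 in pSKBr3 and 76.2 in LRSKBr3 cells. The site chr21:46329931-46332790, 15 bp from an internal start, was gained on HRG (87) and in LRSKBr3 cells (55.4). Another ITGB2 site, chr21:46297599-46299103, had the reverse order in SKBr3 cells, with 84.1 on vehicle, 63.4 on EGF and 29.2 on HRG.

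ITGB5, the β5 partner of αV, had 17 sites, more than any other member, and all lay nearest to one of its own starts. Its strongest site, chr3:124596604-124599797, stood between 79.9 and 98.6 in the 8 lists. Another, chr3:124615985-124617854, carried an ERRE word in its SKBr3 and BT-474 peaks and was gained in all 3 comparisons, at percentile 8.01 on HRG in SKBr3, 37 on HRG in BT-474 and 5.72 in LRSKBr3 cells. ITGB6, the epithelial β6 subunit, had a site upstream of its 5′ end in all 8 lists (38.4 to 83.1). In LRSKBr3 cells an ITGB6 intron site, chr2:160958518-160960480, stood at percentile 84 with no pSKBr3 peak, whereas it stood at 28, 13.2 and 1.04 on vehicle, EGF and HRG in SKBr3 cells.

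ITGB4, the β4 subunit of hemidesmosomes, had 7 sites, of which 6 were not called in BT-474 cells. At chr17:73717364-73721125 a peak was called on HRG (59.6), in pSKBr3 (41.5) and in LRSKBr3 cells (60.6), with its centre 1673, 2572 and 1836 bp inside the gene from the 5′ end. The internal site chr17:73737465-73738791 was gained in SKBr3 cells, at 8.7 on EGF and 52.2 on HRG, and stood at 12.8 in pSKBr3 and 63.3 in LRSKBr3 cells. The ITGB4 site called in all 8 lists, at 98.3 to 98.9 in BT-474 and 68.5 to 88.5 in the other cells, is nearer to the start of GALK1. ITGB7 had a similar site at the top of every list (98.3 to 98.9), nearest to the start of CSAD, and none of the 7 sites in its range was nearest to ITGB7 itself.

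ITGB3, the β3 subunit of platelets and endothelium, had an intronic site at chr17:45374178-45375519 with an ERRE word near the centre of some of its peaks and an AP-1 word near that of others. It stood at percentile 44.4 (vehicle), 21 (EGF) and 61.2 (HRG) in SKBr3 cells, 27.7 in pSKBr3 and 61.7 in LRSKBr3 cells, and it was gained in BT-474 cells on HRG (15.7), in a peak with the AP-1 word alone. ITGB8, the β8 partner of αV, had more peaks on vehicle than on growth factor in SKBr3 cells, 8 against 4 on EGF and 2 on HRG. Its sites at percentiles 20.7, 37.2 and 33.3 were called on vehicle only. These 3 sites are on chromosome 7, which held 24.3% of all vehicle-only sites of SKBr3 cells but 10.1% of all SKBr3 sites, and the part of that in the ITGB8 result was not tested. The site upstream of its 5′ end was called in all 8 lists (16.1 to 89.6).

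Among the laminin α chains, LAMA3 and LAMA4 were growth factor-exclusive in SKBr3 cells. LAMA3, the α3 chain of the laminin of hemidesmosomes, had no vehicle peak in SKBr3 cells. At an internal LAMA3 start, chr18:21449885-21454815 was gained in both lines, at percentile 39.7 on EGF and 37.5 on HRG in SKBr3 cells and 37.8 on HRG in BT-474 cells, and it carries the AP-1 word printed above. In BT-474 cells the gene also had strong common sites that no SKBr3 list called. One, chr18:21263044-21265974 upstream, stood at 79.8 on vehicle, 82.8 on EGF and 85.3 on HRG. Another, chr18:21428812-21433433, stood at 89, 65.6 and 91 and was called in LRSKBr3 (30.9) but not in pSKBr3 cells, so that LAMA3 was resistant-exclusive as well.

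The LAMA4 peak on EGF at chr6:112524700-112526082, at percentile 92.9, was the highest of all gained peaks in range of members in SKBr3 cells, and it was not called in any BT-474, pSKBr3 or LRSKBr3 list. LAMA4, the α4 chain of vessel and muscle basement membranes, instead had other sites in BT-474 cells, the strongest at 22.6 on vehicle and 66 on HRG. LAMA1, the α1 chain, had 1 site in all the lists, chr18:7055828-7057075 in LRSKBr3 cells at percentile 49. LAMA2, the α2 chain of muscle laminin, had 7 sites, and the AP-1 site at an internal start, chr6:129810341-129812856, stood at 17.5 on vehicle, 63.7 on EGF and 18 on HRG in SKBr3 cells.

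LAMA5, the α5 chain of most adult epithelial basement membranes, had 12 sites in SKBr3-derived cells and none in BT-474 cells. Its peaks numbered 4 on vehicle, 7 on EGF and 11 on HRG in SKBr3 cells, and 13 in pSKBr3 and 11 in LRSKBr3 cells. The site just upstream of its 5′ end, chr20:60942454-60947003, had no vehicle peak and stood at 76.1 on EGF and 89.9 on HRG. The parental line called it at 58.5 and the resistant line at 92.6. An intronic site with a vehicle peak, chr20:60935668-60942180, stood at 66.3 on vehicle, 73.7 on EGF and 96.7 on HRG.

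The laminin β genes were in range of a peak in every list, and each had a site called in all 8. Among all genes these held for 26.8% and 22%. With the 5′ end alone LAMB4 was in range in no list. LAMB1, the β1 chain, had the member site of highest percentile, chr7:107587055-107595120, between 95.8 and 100. On HRG in SKBr3 cells no peak was called at a pair of LAMB1 sites that vehicle and EGF called, chr7:107634956-107641436 (82.8 on vehicle, 68.4 on EGF) and chr7:107654635-107659298 (61.4 and 33.7). Both were common to the 3 BT-474 lists. LAMB2, the β2 chain, had a site spanning its 5′ end, chr3:49168038-49173772, between 77.2 and 97.5 in the 8 lists. The ERRE word lay near the centre of its BT-474 HRG peak, and an AP-1 word near that of its SKBr3 peaks on EGF and HRG. A second LAMB2 site with an ERRE word, chr3:49157109-49158909, lies 933 bp from a LAMB2 start and in USP19, and stood at 88.6 to 98.8 in SKBr3-derived cells and at 62.6 on vehicle in BT-474 cells.

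LAMB3, the β3 chain that pairs with LAMA3, had an AP-1 site in all 8 lists, chr1:209792065-209796435 (56.3 to 84.2). It gained chr1:209830037-209832411, upstream of its 5′ end, at 68.5 on EGF and 50.4 on HRG in SKBr3 cells and at 18.1 in LRSKBr3 cells. LAMB4, the β4 chain, had a site in all 8 lists, chr7:107700696-107704473, at 37.4 on vehicle, 81.9 on EGF and 80.4 on HRG in SKBr3 cells. The same LAMB4 site was at 32.1 in pSKBr3 and 83.5 in LRSKBr3 cells, and at 67, 74.6 and 85.3 in BT-474 cells.

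LAMC1, the γ1 chain of most laminins, had gained sites in SKBr3 and in BT-474 cells, and no site was shared between these lines. In SKBr3 cells it had 4 peaks on vehicle, 3 of them called on vehicle only (29.3, 52.3 and 45.4), with 1 peak on EGF and 1 on HRG, the latter a gained one at percentile 20.6. In BT-474 cells it had no peak on vehicle or EGF and 2 on HRG, the stronger 1757 bp from a start at percentile 68.6. LAMC3, the γ3 chain, gained a site at an internal start, chr9:133960152-133962238, on HRG in SKBr3 (65.8) and in LRSKBr3 cells (55.4). That LAMC3 site was also called on vehicle (21.9) and HRG (14.8) in BT-474 cells.

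Counted over genes, 28 of the 37 members had a growth factor-gained site in SKBr3 cells (75.7%, 95% Wilson interval 59.9 to 86.6), against 52.2% of all genes. The interval covers counting error only. There were 19 of 26 integrin and 9 of 11 laminin genes among them, and for 25 of the 28 a gained site had its nearest start in that gene. HRG alone, compared with vehicle, gained a site at 26 members (47.5% of all genes) and EGF at 18 (24.7%). Only 5 members were growth factor-exclusive (13.5%, interval 5.91 to 28.0), against 18.3% of all genes, namely ITGAD, ITGAM, ITGAX, LAMA3 and LAMA4. That share stood above all genes with the 5′ end of each gene as its only start (27% against 20.1%) and within 10 kb (21.6% against 19.3%), and below with lists of equal size (13.5% against 16.3%). The other 23 members gained sites while already having a vehicle peak in range. Sites called on vehicle only were in range of 5 members (ITGB5, ITGB8, LAMA2, LAMB3 and LAMC1; background 11.8%), and every one of these also had a peak on growth factor (a vehicle-only site without any growth factor peak was found for 0 members and 1.88% of all genes). Among the 10 members with no vehicle peak in range, 5 gained one, against 39.8% of all genes with no vehicle peak.

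In BT-474 cells 15 members (40.5%, interval 26.3 to 56.5) had a gained site, against 28.7% of all genes. HRG gained a site at 13 (25.1% of all genes) and EGF at 4 (9.62%), which were ITGAV, ITGB8, LAMA2 and LAMC3. The exclusive members were ITGA1, ITGA8 and LAMC1 (8.11%, against 9.64% of all genes), and the order turned with lists of equal size (13.5%, against 7.33%) and with the 5′ end alone (16.2%, against 9.72%). Sites called on vehicle only were in range of 11 members, against 16.8% of all genes, and ITGA10 had no other site (background 4.81%). Of the 9 members with no vehicle peak, 3 gained one (33.3%), against 20.5% of all such genes. A gained site in each line was present at 11 members (29.7%, against 16.9%). On the same treatment, a peak in both lines was in range of 23 members on vehicle (40.8% of all genes), 18 on EGF (34.1%) and 27 on HRG (44.7%). With the 5′ end alone the numbers fell to 10 on vehicle (27%, against 31.7%), 8 on EGF (21.6%, against 25%) and 17 on HRG (45.9%, against 34.7%), so that the members stood above all genes on HRG only.

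In LRSKBr3 cells 26 members (70.3%, interval 54.2 to 82.5) had a resistant-gained site, against 47.2% of all genes. With the LRSKBr3 list limited to as many peaks as the shorter pSKBr3 list, by score from the top, 16 members had one (43.2%, against 21% of all genes). With the full lists 5 were resistant-exclusive (13.5%, against 14.6%), and with lists of equal size 3 (8.11%, against 5.47%). These were ITGA3, ITGA10, ITGAM, LAMA1 and LAMA3. Only ITGAX and LAMC1 had a site called in pSKBr3 cells alone (background 7.84%), and neither had an LRSKBr3 peak (background 1.81%). Of the 11 members with no pSKBr3 peak, 5 gained one (45.5%), against 34.1% of all such genes. A growth factor-gained site in SKBr3 cells and a resistant-gained site were both present at 23 members (62.2%, against 34%). A gained site in all 3 comparisons was present at 8 members (background 11.8%), namely ITGA1, ITGA3, ITGB1, ITGB2, ITGB5, LAMA2, LAMA3 and LAMC3. At 19 members a gained site was found in 2 comparisons, at 7 in 1 and at 3 in none. The share of all genes was not counted for these classes, so they are not read as a result about the members.

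With the 5′ end alone, 21 members had a gained site in SKBr3 cells (56.8%, against 43.5% of all genes), 10 in BT-474 cells (27%, against 19.7%) and 17 in LRSKBr3 cells (45.9%, against 38.6%). By that measure the exclusive members numbered 10, 6 and 10 (27%, 16.2% and 27%), against 20.1%, 9.72% and 15.6% of all genes. The exclusive members were thus below all genes with every start counted and above them with the 5′ end alone, in all 3 comparisons. Peaks within 1 kb of a start were in range of 7, 13 and 16 members on vehicle, EGF and HRG in SKBr3 cells, against 23.3%, 22.3% and 35.7% of all genes. The corresponding numbers in BT-474 cells were 7, 2 and 6, against 19.4%, 11.4% and 16.8%. In pSKBr3 and LRSKBr3 cells they were 10 and 15, against 31.4% and 41.7%. Within 1 kb of the 5′ end alone the members' shares were below those of all genes in the 8 lists. In SKBr3 cells they were 8.11%, 10.8% and 18.9% on vehicle, EGF and HRG, against 15.9%, 14.5% and 26.4%.

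The 54 resistant-gained sites at members were compared with the SKBr3 lists, which come from serum-starved cells. A growth factor peak without a vehicle peak overlapped 23 of them (42.6%, interval 30.3 to 55.8), against 28.4% of all resistant-gained sites. The SKBr3 HRG list overlapped 32 (59.3% against 42.6%), the vehicle list 15 (27.8% against 34.7%), and none of the 3 lists overlapped 16 (29.6% against 36.8%). Examples are the ITGA3 site at chr17:48139045-48140492, the ITGB2 site at chr21:46329931-46332790 and the LAMC3 site at chr9:133960152-133962238 described above. Of the 29 sites gained in BT-474 cells, the SKBr3 HRG list overlapped 14 (48.3%, interval 31.4 to 65.6), against 14.8% of all sites gained in BT-474 cells. The SKBr3 EGF list overlapped 11 (37.9% against 18.4%). The members' share was also above that of all sites for the SKBr3 vehicle list (20.7% against 14.2%), pSKBr3 (13.8% against 7.05%) and LRSKBr3 (27.6% against 15.9%). In the reverse direction the members' shares were not above those of all sites. Of the 78 sites gained in SKBr3 cells, the BT-474 HRG list overlapped 16 (20.5% against 21.7%) and the BT-474 EGF list 2 (2.56% against 11.2%). Sites of 1 gene are neighbours and not independent, and the differences were not tested. Member sites all lie within 20 kb of a start, whereas all sites were not limited in this way, so the sets differ in kind.

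HRG contributed most of the gained sites. In SKBr3 cells 48 of the 78 gained sites at members were called on HRG only (61.5%, against 56.8% of all gained sites), 8 on EGF only (10.3% against 22.6%) and 22 on both (28.2% against 20.6%). In BT-474 cells 25 of 29 were called on HRG only (86.2% against 67.6%), 4 on EGF only (13.8% against 22.3%) and none on both, against 10.1% of all gained sites. Gained peaks had lower percentiles than common ones, at members as over all sites. A common site had to pass the score threshold in every list of its comparison, whereas a gained site had no call in the control list. The order is therefore set in part by the definitions. In SKBr3 cells the median percentile was 36.1 over 100 gained peaks and 70.2 over 165 common peaks. The medians were 20.3 over 29 and 74.2 over 102 peaks in BT-474 cells, and 36 over 54 and 68.4 over 114 peaks in the comparison of LRSKBr3 with pSKBr3 cells. With the strongest peak of each site, the medians of gained and common sites in SKBr3 cells were 39.5 and 80.5 at members and 32 and 82.4 over all sites. They were 20.3 and 79.6 against 23.9 and 78.5 in BT-474 cells, and 36.1 and 78.4 against 30.3 and 75.6 for LRSKBr3 with pSKBr3 cells.

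**Figure D4:**
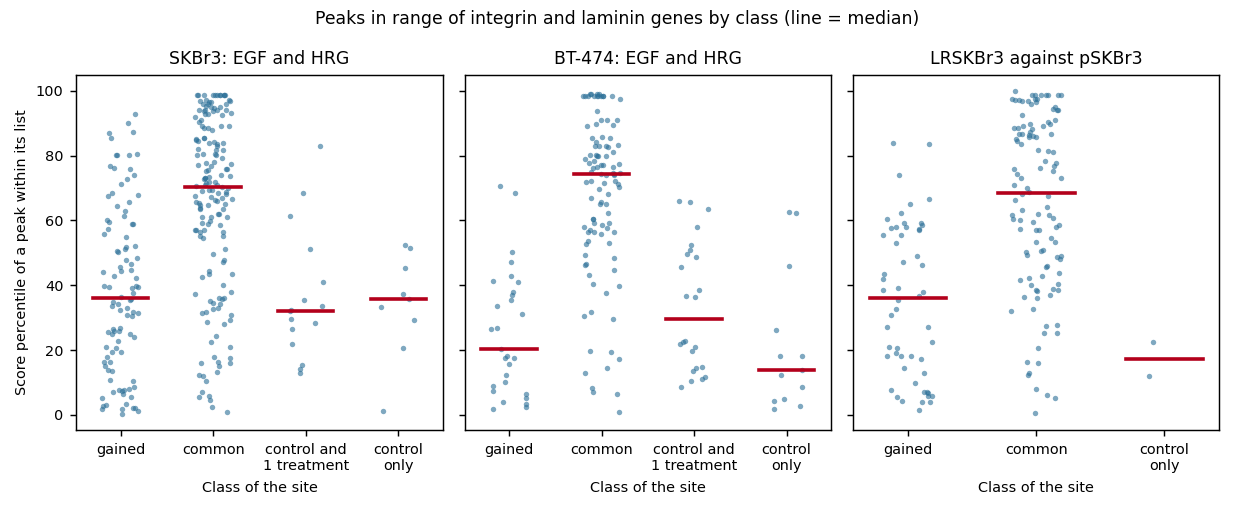
Each point is a peak in range of a member, plotted by its score percentile within its list (y axis) and the class of its site (x axis) in SKBr3, BT-474 and LRSKBr3 against pSKBr3 cells, and the red line is the median. Gained peaks have lower medians (36.1, 20.3 and 36) than common peaks (70.2, 74.2 and 68.4), with overlapping ranges. Common sites were by definition called in every list of the comparison, so this order is set in part by the classes.

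The AP-1 word was present at 11 of the 78 gained member sites in SKBr3 cells (14.1%, interval 8.06 to 23.5), and at 13.7% of all gained sites. At common member sites it was present at 5 of 53 (9.43%), and at 8.12% of all common sites. Gained sites in BT-474 cells had it at 3 of 29 (10.3%, against 7.44%) and in LRSKBr3 cells at 5 of 54 (9.26%, against 6.14%). Common member sites had it at 0 of 34 in BT-474 cells, against 6.55% of all common sites, and at 4 of 55 in LRSKBr3 cells (7.27%, against 5.25%). With the whole peak searched, the order of gained and other member sites turned in SKBr3 cells (39.7% and 41.4%) and in LRSKBr3 cells (22.2% and 38.6%). The ERRE word was found at 3 gained member sites in SKBr3 cells (3.85%, against 4.30% of all gained sites), 1 in BT-474 (3.45%, against 4.05%) and 1 in LRSKBr3 cells (1.85%, against 7.54%). The intervals of the members' shares include the shares of all gained sites in each of these cases, and such a word is a match of letters, not a measured contact.

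The 19 sites called in all 8 lists were in range of 15 members (40.5%, against 22% of all genes). Within 10 kb of a start there were 9 such members (24.3%, against 16.1%), and with the 5′ end alone 6 (16.2%, against 16.9%). These members were ITGA3, ITGA5, ITGA7, ITGAL, ITGAV, ITGB4, ITGB5, ITGB6, ITGB7, ITGB8, LAMB1, LAMB2, LAMB3, LAMB4 and LAMC3. For 11 of the sites the nearest start belonged to a member, while those at ITGA3, ITGA5, ITGA7, ITGAL, ITGB4, ITGB7 and LAMC3 were nearer to a neighbouring gene. The ITGA3 site, chr17:48182114-48187010, had its peak centre within range in the BT-474 vehicle list only. Counting a gene only where the nearest start is its own left 8 members with such a site. The share of all genes was not counted under this rule.

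The list of 44 adhesion pathway genes, which holds integrin adaptors, kinases and other matrix components, had a gained site at 33 genes in SKBr3 cells (75%, against 52.2% of all genes), 18 in BT-474 cells (40.9%, against 28.7%) and 37 in LRSKBr3 cells (84.1%, against 47.2%). Their range was as wide as that of the members (median 97.3 kb). In SKBr3 cells 30, 33 and 33 of them had a peak on vehicle, EGF and HRG, against 54.1%, 56.3% and 66.4% of all genes. Growth factor-exclusive genes numbered 6 in SKBr3 cells (13.6%, against 18.3%) and 4 in BT-474 cells (9.09%, against 9.64%), and 7 genes were resistant-exclusive (15.9%, against 14.6%). FERMT1, which encodes the integrin activator kindlin-1, was growth factor-exclusive in both lines. COL4A4, a collagen IV chain of the basement membrane, was growth factor-exclusive in SKBr3 cells and resistant-exclusive. The other resistant-exclusive genes were COL17A1, DST, FN1, PARVA and the kinases PTK2 (FAK) and PTK2B, named after their values were seen. Of these, DST, FN1, PTK2 and PTK2B were in range of a peak in SKBr3 cells on vehicle.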

How the data were processed

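ERRα ChIP-seq peaks were measured in SKBr3 and BT-474 cells on vehicle, EGF or HRG and in pSKBr3 and LRSKBr3 cells, 19 sequenced samples in all, and were deposited as 8 lists. The authors mapped reads to hg19 with BWA 0.5.9 and used MACS with a P value threshold of 1e-05, and the score deposited with each peak is −10 log10 of its P value. A score of 3100 is shared by 478 to 1156 peaks of each list, so percentiles near the top are ties. Samples were grouped by the GEO labels. The lists carry neither tag counts nor separate replicates, hence the read depth is unknown, counting intervals (95%, Wilson) are the sole errors given, and no test between conditions was made. A test needs at least 2 lists per condition.

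Starts were all annotated transcript starts of protein-coding genes in GENCODE release 44 lifted to GRCh37, whatever the strand. Peaks overlapping by at least 1 bp were merged, directly or through another peak, within a comparison for its classes and over all 8 lists for the site coordinates. Site coordinates span all joined peaks, and the percentile given per list is that of the strongest peak joined to the site. Words were searched within 100 bp of the centre of the strongest peak of a site for shares. The members and the pathway list were chosen with earlier results of these data known. Members were described where they had a peak within 1 kb of a start, were exclusive in a comparison, had a site in all 8 lists, had gained sites in 2 or more comparisons, or had no peak, and the remaining members were added for completeness. Pathway genes were named where exclusive in 2 or more comparisons, and the other resistant-exclusive ones were named after their values were seen. Sequences were chosen by highest score percentile for at most 10 gained sites with a word and 3 sites of all 8 lists, and 4 of the former are not reported here. Alternatives concerned the P value, the distance, the start, the overlap rule, lists of equal size, the definition of gained and the motif window. Starts of protein-coding transcripts alone were added as an alternative after the data were seen. Class assignment, range and word search were tested on simulated data. Python 3.11.15 was used with pandas 2.3.3, scipy 1.17.1, numpy 2.4.6 and matplotlib 3.10.9.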

Additional observations from a re-analysis of the deposited data

Results flagged for a closer look

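At ITGA3, a site near an internal start on chromosome 17 was gained in one line and called on vehicle only in the other. In SKBr3 cells it was called on EGF (48164363 to 48165324, score percentile 7.33) and on HRG (48164421 to 48165450, percentile 42.8) but not on vehicle. In BT-474 cells it was called on vehicle, at percentile 4.94, and on neither growth factor. Each condition has 1 list, so the difference was not tested, and a percentile of 4.94 is close to the threshold for calling a peak.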

How the results depend on the processing

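Of 150 alternative values, 111 stayed within 1.5 times the main count or the counting interval of the main share, and 39 did not. The cause was not tested beyond what each alternative changes. With the 5′ end of a gene alone, members in range numbered 16 (SKBr3 vehicle), 20 (SKBr3 EGF), 14, 9 and 19 (BT-474 vehicle, EGF and HRG) and 12 (pSKBr3). Exclusive members then numbered 10 (SKBr3), 6 (BT-474) and 10 (LRSKBr3), resistant-gained members 17, members in both lines 10 on vehicle, 8 on EGF and 17 on HRG, and members with a site in all 8 lists 6. Within 10 kb, exclusive members numbered 8 (SKBr3) and 9 (LRSKBr3; 24.3%, against 15.4% of all genes), and 9 members had a site in all 8 lists. At P values of at most 1e-08, exclusive members numbered 8, 6 and 10 in SKBr3, BT-474 and LRSKBr3 cells, and at 1e-10 they numbered 10, 5 and 10, with 16 members in range in pSKBr3 cells and an ERRE word at 0% of BT-474 gained sites. At 1e-08 the exclusive shares were 21.6%, 16.2% and 27%, against 18.2%, 6.88% and 15.2% of all genes. At 1e-10 the exclusive shares were 27%, 13.5% and 27%, against 18%, 6.33% and 15.8% of all genes. The share of all genes was not counted for the members in range in pSKBr3 cells at 1e-10. With lists of equal size, BT-474 exclusive members numbered 5 (13.5%, against 7.33% of all genes), resistant-gained members 16 (43.2%, against 21%) and resistant-exclusive members 3 (8.11%, against 5.47%). With binding on both EGF and HRG required, 15 members were gained in SKBr3 cells, and in BT-474 cells 0 were gained and 0 exclusive. The share of all genes was not counted under this rule, so these counts are not read as a result about the members. With the whole peak searched, the AP-1 word was at 39.7%, 48.3% and 22.2% of gained and 41.4%, 37.3% and 38.6% of other sites in SKBr3, BT-474 and LRSKBr3 cells, and the ERRE word at 11.4% (SKBr3) and 16.9% (BT-474) of other sites. Both other rules for shared peaks, and starts of protein-coding transcripts alone (added after the data were seen), moved none of the values.

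No paired analysis was possible because the authors pooled replicates into 1 list per condition, and for the same reason leaving out replicates was not run. The absence of a peak says only that no peak passed the P value in that list. BT-474 lists rest on 1 ChIP library each, and the lists differ in size.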
